A study of Mus musculus with 38 samples.

Results

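The data described here are those of 10 genes, the 7 sirtuins Sirt1 to Sirt7 and the FoxO transcription factors Foxo1, Foxo3 and Foxo4. They were chosen by symbol as genes studied in connection with longevity, and all 10 were found among the 25965 genes of the RNA table and the 25888 genes of the ChIP table. The cells were neural stem/progenitor cells (NSPCs) from the subventricular zone (SVZ), a neurogenic niche of the adult brain, grown as neurospheres in medium with EGF and FGF and harvested at the second passage. Young adult NSPCs came from male mice of 3 months and aged NSPCs from male mice of 18 months. The main cohort was of the strain C57BL/6JBabr, with 3 derivations per age for each assay, each pooled from several mice. A separate cohort of C57BL/10 mice, housed in a different facility, gave 1 young adult and 1 aged RNA library, so strain and facility cannot be told apart. The labels name no genetic change and no treatment for any group. Since the cells were expanded in culture, the values describe cultured NSPCs and not the niche, and in such bulk samples fewer cells of a type and less RNA per cell cannot be told apart.

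Sirtuins are NAD+-dependent enzymes that remove acetyl and related acyl groups from histones and other proteins. Sirt1, Sirt6 and Sirt7 act mainly in the nucleus, Sirt2 mainly in the cytoplasm, and Sirt3, Sirt4 and Sirt5 in mitochondria. FoxO proteins are forkhead transcription factors that insulin and IGF signalling holds out of the nucleus through Akt, and they activate genes of cell cycle arrest, stress resistance and metabolism. Both families are known for their links to lifespan in model organisms, and FoxO factors for maintaining the neural stem cell pool.

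The RNA libraries held 16952483 to 41053986 reads, of which 65.5% to 69.3% lay on genes. Each of the 10 genes had between 80 and 3864 reads in a library. All 10 NSPC markers examined (among them Nes, Sox2 and Egfr) had reads in every library, with a summed level of 6850 to 8147 library-scaled reads (RPM) in young adult and 6312 to 7803 in aged C57BL/6JBabr NSPCs, and 7812 to 9208 in C57BL/10. The 6 microglial markers summed to 5.05 to 6.81 RPM over all libraries, and Aif1, Itgam, Cx3cr1, Ptprc and Tmem119 each stayed under 1 RPM. The 8 astrocyte markers summed to 2124 to 2500 RPM in young adult and 1917 to 2168 RPM in aged libraries of the main cohort, and to 2021 and 2745 RPM in C57BL/10. The 8 oligodendrocyte lineage markers lay at 1169 to 1353, 1307 to 1405 and 1350 to 1644 RPM in the same order. The neuronal, endothelial, pericyte and ependymal lists reached at most 19.97, 3.03, 2.27 and 111.2 RPM. The part of these cell types in the values below was not tested.

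Promoter sequences of 9 of the 10 genes were matched by symbol in RefSeq (GRCm38.p6), with 11 entries in all, and Foxo4 had none there. The 250 bases before the start are shown for 5 genes on which the promoter data turn. Foxo3 and Foxo1 had the most H3K4me3 and, with Foxo4, the least DNA methylation within 1 kb of the start. Sirt6 had methylated flanks close to its start. The RefSeq starts of Sirt1 and Sirt5 differ from the starts of the ChIP windows used for them. Capitals mark matches, on either strand, to the E-box CACGTG, the GC box GGGCGG, the CCAAT box, the ETS motif CCGGAAG and the FoxO motif GTAAACA. Overlapping GC boxes form 1 run of capitals.
Foxo3 (chr10:42276696-42276945, minus strand): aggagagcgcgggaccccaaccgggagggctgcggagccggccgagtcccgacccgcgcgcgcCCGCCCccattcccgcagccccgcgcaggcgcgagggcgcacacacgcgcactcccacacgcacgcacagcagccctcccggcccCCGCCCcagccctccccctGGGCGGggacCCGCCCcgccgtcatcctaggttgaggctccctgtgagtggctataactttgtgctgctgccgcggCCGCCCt
Foxo1 (chr3:52268087-52268336, plus strand): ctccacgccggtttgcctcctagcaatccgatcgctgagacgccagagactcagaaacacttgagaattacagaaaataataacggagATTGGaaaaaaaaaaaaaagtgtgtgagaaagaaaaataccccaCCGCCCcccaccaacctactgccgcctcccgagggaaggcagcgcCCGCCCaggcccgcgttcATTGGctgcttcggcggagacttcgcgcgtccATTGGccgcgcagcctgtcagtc
Sirt1 (chr10:63339036-63339285, minus strand): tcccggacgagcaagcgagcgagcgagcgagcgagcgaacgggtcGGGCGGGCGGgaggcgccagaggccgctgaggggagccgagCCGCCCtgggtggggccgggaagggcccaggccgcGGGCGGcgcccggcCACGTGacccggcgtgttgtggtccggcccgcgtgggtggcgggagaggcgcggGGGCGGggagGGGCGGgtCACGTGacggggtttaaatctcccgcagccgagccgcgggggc
Sirt5 (chr13:43365285-43365534, plus strand): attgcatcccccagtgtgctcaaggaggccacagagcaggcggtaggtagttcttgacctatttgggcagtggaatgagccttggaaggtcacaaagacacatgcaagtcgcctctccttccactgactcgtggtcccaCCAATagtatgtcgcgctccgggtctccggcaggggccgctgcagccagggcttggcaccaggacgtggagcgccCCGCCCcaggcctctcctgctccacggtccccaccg
Sirt6 (chr10:81627567-81627816, minus strand): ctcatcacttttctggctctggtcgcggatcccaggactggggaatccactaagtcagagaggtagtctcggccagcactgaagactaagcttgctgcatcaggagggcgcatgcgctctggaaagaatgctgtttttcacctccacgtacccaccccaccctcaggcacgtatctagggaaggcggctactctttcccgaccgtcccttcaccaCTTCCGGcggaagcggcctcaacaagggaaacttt

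The Sirt1 promoter held 39 CpGs in these 250 bases, more than 98.4% of all 32851 RefSeq promoters, whose median was 6. Foxo3 held 31, Foxo1 20, and Sirt5 and the Sirt6 entry shown 13 each. Sirt1 had 2 E-boxes, which start 115 and 43 bases before the start, and 6 GC boxes. An E-box was present in 6.02% of all promoters of this length and a GC box in 32.7%. Foxo3 had 5 GC boxes and none of the other motifs. Foxo1 had 2 GC boxes and 3 CCAAT boxes, a motif found in 33.8% of promoters. The Sirt6 entry shown had 1 ETS match, found in 6.91% of promoters. A second RefSeq entry of Sirt6, with its start further into the gene, held 20 CpGs and 1 GC box and had no ETS match, and Sirt3 too had 2 entries. The Sirt5 promoter had 1 GC box and 1 CCAAT box. The FoxO motif was in 3.17% of all promoters and in none of the 11 entries of these genes. Such matches are descriptions of the letters and not binding sites.

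Levels of different genes were compared as log2 RPKM, which divides RPM by the length of the exons in the basic GENCODE annotation. The order depends on these lengths, such as 1803 bases for Sirt7, 1724 for Sirt3 and 7405 for Foxo3. A longer count of exons gave 5148, 5973 and 7571 bases. By it Sirt7 would lie below Foxo3 and Sirt3 below Sirt4, while Sirt2 would stay the highest. Sirt2, a tubulin deacetylase abundant in brain, was the highest, at 5.26 ± 0.22 log2 RPKM (SD over the 6 C57BL/6JBabr libraries), above 95.0% of the 25035 genes with an exon length. Sirt7, a nucleolar sirtuin, followed at 3.46 ± 0.14, then Foxo3 at 3.23 ± 0.10, Foxo4 at 2.92 ± 0.13 and the mitochondrial deacetylase Sirt3 at 2.65 ± 0.27. The lower levels were those of Sirt4 (1.77 ± 0.09), Sirt1 (1.45 ± 0.19), Foxo1 (1.11 ± 0.19), Sirt6 (1.06 ± 0.13) and Sirt5 (0.53 ± 0.26). In 2 steps of this order the ranges over the 6 libraries did not overlap. By the lengths used, Sirt2 lay above Sirt7 by 1.80 ± 0.16 and Sirt3 above Sirt4 by 0.88 ± 0.25 (SD of the within-library difference, n = 6). Every other pair of neighbours had overlapping ranges. Within libraries 4 steps held in all 8, these and those from Foxo3 to Foxo4 (by 0.11 or more) and from Foxo4 to Sirt3 (by 0.012 or more). Foxo1 and Sirt6 differed by 0.05 ± 0.21, and their order was turned in 2 of the 8 libraries.

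**Figure D1:**
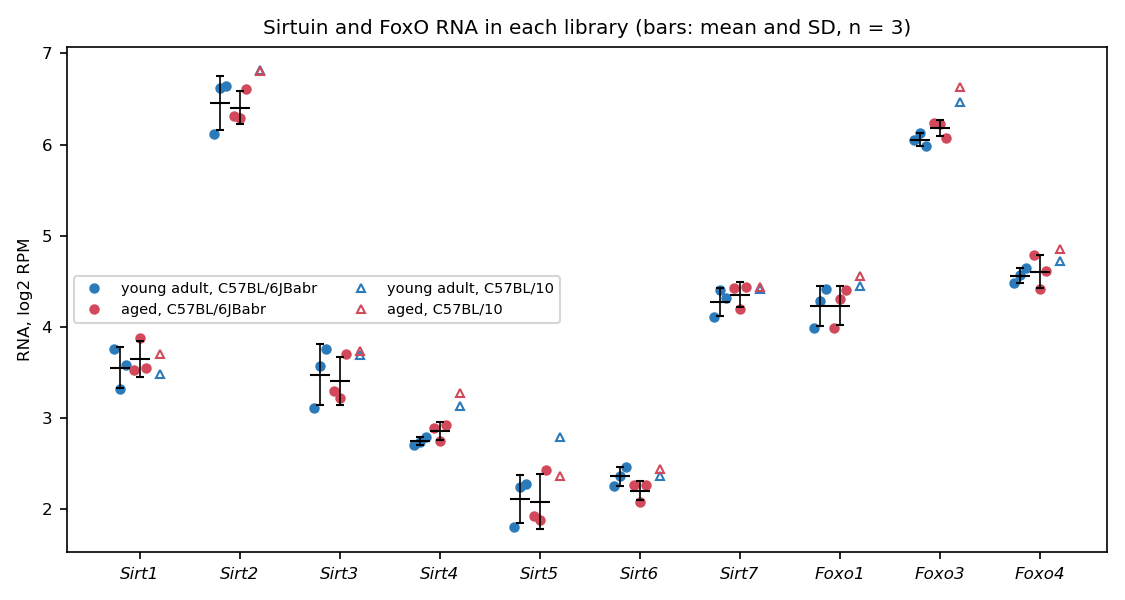
RNA level of each gene in log2 RPM (vertical axis) in each of the 8 libraries, with circles for C57BL/6JBabr, open triangles for C57BL/10, and bars for the mean and SD of 3 derivations. Young adult and aged circles overlap for all 10 genes, and both C57BL/10 libraries lie above all circles for Sirt2, Sirt4, Foxo1 and Foxo3.

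None of the 10 genes passed the test for a difference in RNA between young adult and aged NSPCs of the main cohort. The comparison of the 6 libraries on log2 RPM gave an adjusted p of 0.99998 from limma for each of them, as for all 14858 genes tested, of which 0 were called (0.0%). With an unadjusted p under 0.05, 258 genes (1.74%) and none of the 10 were counted. A limma fit blocked on replicate number, in which pairing by number is an assumption, gave 1229 genes with such a p and again none of the 10. The median residual SD was 0.173 without and 0.108 with the block. The lack of calls without the block therefore does not show that no gene changed with age. The groups overlapped for every one of the 10 genes, against 5.2% of all genes tested in which they did not. Of the 10 genes, 6 were higher and 4 lower in aged NSPCs, with a median log2 difference of 0.02, beside 0.0015 over all genes tested. The 95% intervals of the fold (aged over young adult) reached from 0.691 at the lowest (Sirt3) to 1.38 at the highest (Sirt5), and in the fit blocked on replicate number from 0.739 (Sirt6) to 1.31 (Sirt1).

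Among the nuclear sirtuins, Sirt1 (chromosome 10, 63319005 to 63381704), the deacetylase of p53 and FoxO proteins, had a log2 RPM of 3.76, 3.32 and 3.57 in young adult and 3.53, 3.87 and 3.54 in aged NSPCs. The differences between libraries with the same number were -0.23, 0.56 and -0.03, so replicate 2 alone was higher. The limma difference was 0.10 (standard error 0.16). Sirt6 (chromosome 10, 81621785 to 81627797), which acts on histone H3 lysine 9, showed the largest difference of the 10 genes. It had a log2 RPM of 2.26, 2.36 and 2.46 in young adult and 2.26, 2.08 and 2.26 in aged NSPCs. The difference was -0.16 (standard error 0.15), with replicate 1 level and replicates 2 and 3 lower in aged NSPCs. Sirt7 (chromosome 11, 120618372 to 120625240) ranged from 4.11 to 4.44 over the 6 libraries and differed by 0.08 (standard error 0.12).

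Sirt2 (chromosome 7, 28766735 to 28788665) had a log2 RPM of 6.12, 6.62 and 6.64 in young adult and 6.31, 6.29 and 6.61 in aged NSPCs, a difference of -0.06 (standard error 0.16). Young adult replicate 1 was the lowest of the 6 libraries, and the groups overlapped. Of the mitochondrial sirtuins, Sirt3 (chromosome 7, 140863670 to 140882309) ranged from 3.10 to 3.75 and differed by -0.07 (standard error 0.20). Sirt5 (chromosome 13, 43370710 to 43395202), which removes succinyl and malonyl groups, ranged from 1.80 to 2.43 and differed by -0.02 (standard error 0.21). Sirt2, Sirt3 and Sirt5 varied together, with a Pearson correlation of 0.95 between Sirt2 and Sirt3 and 0.92 between Sirt2 and Sirt5 over the 8 libraries, which share their depth and scaling. Over the same 8 libraries other pairs were also high, with 0.88 for Sirt2 and Foxo1 and 0.88 for Sirt4 and Foxo3. Both C57BL/10 libraries lay above all 6 others for Sirt2, Sirt4, Foxo1 and Foxo3, so these correlations include the difference between strains. Its part in them was not tested. Every pair of members without Sirt1 was positive, and Sirt1 ranged from 0.10 (Foxo3) to -0.68 (Sirt7). Sirt4 (chromosome 5, 115478010 to 115484725) was the least variable of the 10 genes in young adult NSPCs, at 2.71, 2.74 and 2.79, against 2.89, 2.74 and 2.92 in aged NSPCs. Its difference was 0.11 (standard error 0.13). It was higher in the aged library at all 3 replicate numbers, by 0.19, 0.0034 and 0.13, and by 0.14 in the C57BL/10 pair.

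Of the FoxO genes, Foxo3 (chromosome 10, 42181841 to 42276755) had a log2 RPM of 6.05, 6.12 and 5.98 in young adult and 6.24, 6.23 and 6.08 in aged NSPCs. It too was higher in the aged library at all 3 replicate numbers, by 0.18, 0.10 and 0.10, and by 0.17 in the C57BL/10 pair. Of all genes tested 15.9% were higher in aged NSPCs at all 3 numbers, and 12.2% in the C57BL/10 pair as well, so 2 of the 10 genes is close to that share. The difference was 0.13 (standard error 0.08), and the groups still overlapped. Foxo1 (chromosome 3, 52268337 to 52350109) had 3.99, 4.29 and 4.41 in young adult and 3.99, 4.30 and 4.40 in aged NSPCs, so each pair of equal number differed by at most 0.02. Foxo4 (chromosome X, 101254528 to 101260873) ranged from 4.42 to 4.79 and differed by 0.05 (standard error 0.12). In a limma fit that blocks on replicate number, 74 of the 14858 genes (0.498%) and none of the 10 were called. Among the 10, Foxo3 then had the smallest p, 0.0716 unadjusted and 0.669 adjusted.

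**Figure D2:**
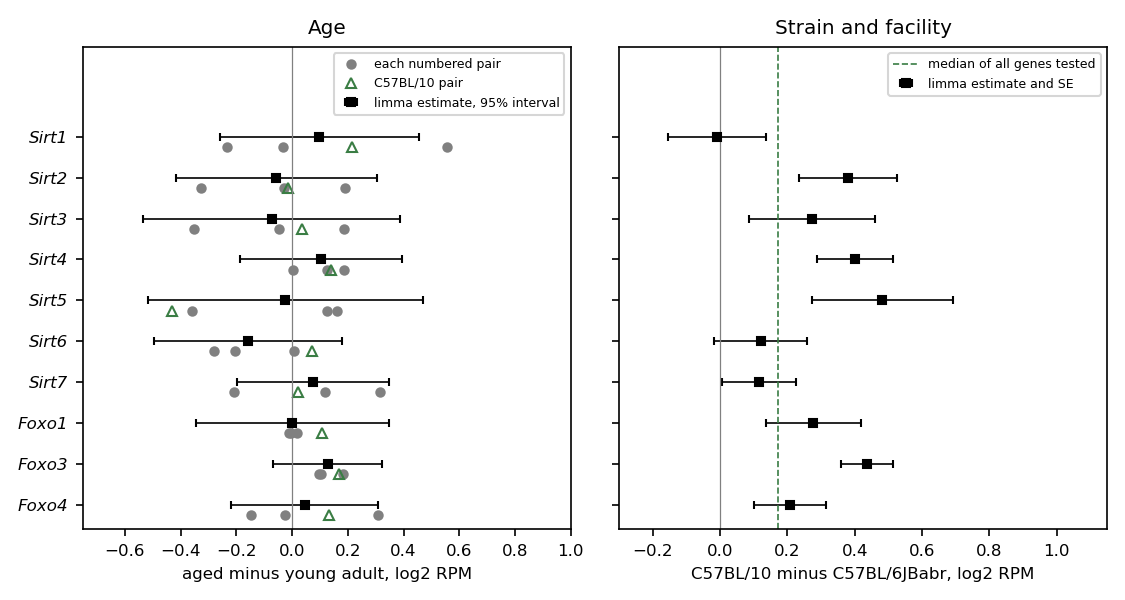
Left, aged minus young adult log2 RPM with the limma estimate and its 95% interval (squares), each pair of libraries of equal number (grey) and the C57BL/10 pair (triangles). Right, C57BL/10 minus C57BL/6JBabr with its standard error and the median of all genes tested (dashed, 0.17). All intervals for age include 0, and Foxo3, Sirt4, Sirt2 and Sirt5 lie highest for strain.

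Lists of genes around the pair of families were described by the same fit. Of 16 tested genes of NAD metabolism, 9 were higher and 7 lower in aged NSPCs, with a median log2 difference of 0.0036. The 30 tested regulators and partners of sirtuins had 14 higher and 16 lower, and a median of -0.02. For insulin and PI3K-Akt signalling, 17 of 28 were higher and 11 lower (median 0.04), and for FoxO regulators 17 of 27 were higher and 10 lower (median 0.01). Of 45 tested FoxO targets 24 were higher and 21 lower (median 0.0090). The other histone deacetylases had 9 of 11 higher (median 0.03) and the other forkhead genes 9 of 16 (median 0.02). Over all genes tested 7512 were higher and 7346 lower. No gene of these lists was called by limma without the block.

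With the block, Igfbp5, a secreted binding protein of insulin-like growth factors, was called as the only gene of these lists. It had a log2 RPM of 5.20, 5.70 and 5.89 in young adult and 4.94, 5.11 and 5.34 in aged NSPCs, so the groups overlapped but every pair fell. The difference was -0.47 with a standard error of 0.18. Its adjusted p in limma was 0.99998, and 0.0306 in the blocked fit. Over the alternatives tried, the adjusted p ranged from 0.0306 to 1.0. In the C57BL/10 pair it was 5.90 in young adult and 5.45 in aged NSPCs. Igf1, the growth factor, was low, with 0.42, 0.24 and -0.25 in young adult and -0.19, -0.40 and -1.13 in aged NSPCs. Its difference was -0.71 (standard error 0.34, adjusted p = 0.402 from limma with the block), and it also lay lower in the aged C57BL/10 library (0.77) than in the young adult one (1.56).

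The other genes with the largest differences of each list were not called in either fit. In NAD metabolism, these were Naprt1, the nicotinic acid phosphoribosyltransferase (-0.35, standard error 0.33), Sarm1, an NAD hydrolase of axon degeneration (0.19, standard error 0.13), and the nuclear NAD synthase Nmnat1 (-0.13, standard error 0.16). Among sirtuin partners they were Acss1, a mitochondrial acetyl-CoA synthetase (0.30), the Sirt1 regulator Rps19bp1 (-0.19) and the cell cycle factor E2f1 (-0.17). For FoxO targets they were Aspa (-0.64), Trib3 (0.44) and the Wnt receptor Fzd1 (0.28). Hdac9 (0.31), Hdac5 (0.25) and Hdac7 (0.11) led the other histone deacetylases. The forkhead genes Foxc2 (-0.70), Foxc1 (-0.52) and Foxr2 (-0.45) were low, and of them only Foxr2 had all aged libraries below all young adult ones. Pik3cd (0.31), Sfn (0.24), Pim1 (0.17) and Cdk1 (-0.12) completed the signalling lists. Of the 21 list genes named by age, all but Igfbp5 moved by over 1.5 times when 1 library was left out, for example Naprt1 from -0.70 to -0.10, E2f1 from -0.31 to -0.06, Aspa from -0.90 to -0.34, Trib3 from 0.12 to 0.60, Fzd1 from 0.09 to 0.47, Hdac9 from 0.12 to 0.56 and Foxc2 from -1.06 to -0.18.

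In the separate cohort, Foxo3 and Sirt4 were higher than in the main cohort, and no other of the 10 genes passed the test. The strains were compared over the 8 libraries with age as a term. Foxo3 had a log2 RPM of 6.47 (young adult) and 6.64 (aged) in C57BL/10, both above all 6 C57BL/6JBabr libraries, a difference of 0.44 (standard error 0.08, adjusted p = 0.00278 from limma). Sirt4 had 3.13 and 3.27, also above all 6, a difference of 0.40 (standard error 0.11, adjusted p = 0.0277 from limma). This is 2 of the 10 genes called higher, where 18.2% of the 14828 genes tested were called higher and 11.5% lower, and 29.7% in either direction, so the share is close to that of all genes. Both C57BL/10 libraries also lay above all 6 others for Sirt2 (6.82 and 6.80) and Foxo1 (4.45 and 4.56), which did not pass (adjusted p = 0.0773 and 0.165 from limma). Such separation was found in 4 of the 10 genes, and 31.6% of all genes tested had it in this direction.

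The median of all genes tested lay 0.17 higher in C57BL/10 on log2 RPM, and the size of the strain differences moved with the scaling. Relative to that median, Foxo3 was 0.26 higher and Sirt4 0.23 higher. Both genes stayed called with median centring (0.45 and 0.41, adjusted p = 0.0036 and 0.0188 from limma) and with quantile normalization (0.38 and 0.52, adjusted p = 0.00911 and 0.00723), where the median of all genes was 0.19 in each. On whole reads, where that median was -0.0064 by edgeR and 0.0045 by DESeq2, edgeR with TMM scaling gave 0.26 for Foxo3 (adjusted p = 0.0546) and 0.23 for Sirt4 (adjusted p = 0.213), and DESeq2 with its size factors gave 0.27 for Foxo3 (adjusted p = 0.0282) and 0.24 for Sirt4 (adjusted p = 0.288). Over all genes tested, limma on log2 RPM called 2697 higher and 1708 lower, edgeR 630 and 1942, and DESeq2 830 and 2038. In the blocked limma fit, which called 25.2% of genes, the adjusted p was 0.00383 for Foxo3 and 0.0535 for Sirt4. Without the young adult C57BL/10 library limma gave an adjusted p of 0.0507 for Foxo3 and 0.211 for Sirt4, and without the aged one 0.0583 and 0.194, so neither gene was called with a single C57BL/10 library. Over all alternatives the adjusted p ranged from 0.00256 to 0.0583 for Foxo3 and from 0.00723 to 0.288 for Sirt4. Sirt5 had a log2 RPM of 2.79 and 2.36 in C57BL/10, a difference of 0.48 (standard error 0.21, adjusted p = 0.108 from limma). It was 0.28 without the young adult and 0.69 without the aged C57BL/10 library. Sirt5 was called with quantile normalization (adjusted p = 0.0257 from limma) and without aged replicate 3 (0.0403), and Sirt2 without aged replicate 3 (0.0436), against up to 0.601 and 0.394 under other alternatives. The differences of Sirt3, Foxo4, Sirt6, Sirt7 and Sirt1 were 0.27, 0.21, 0.12, 0.11 and -0.0087, and edgeR and DESeq2 turned the direction for Sirt6 and Sirt7. With 1 library left out, Sirt6 ranged from 0.0050 to 0.24 and Sirt7 from 0.074 to 0.14. A difference of the age effect between the strains was not called for any of the 10 genes, with unadjusted p from 0.365 (Sirt5) to 0.899 (Sirt2) and an adjusted p of 0.999999 from limma for each, while 1 gene (0.00674%) was called among 14828 and 1.62% had an unadjusted p under 0.05. The blocked fit called 0.148% of genes higher and 0.0944% lower there, and none of the 10.

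The lists around both families were described between strains in the same way. Of the 16 NAD metabolism genes 5 were called higher in C57BL/10 and none lower, beside 18.2% and 11.5% of all genes tested. They were Nnt, the mitochondrial transhydrogenase that makes NADPH from NADH, the NAD synthase Nmnat2, the tankyrases Tnks and Tnks2, and 1110020G09Rik, now Nadk2, a mitochondrial NAD kinase, all named after their values were seen. Nnt had a log2 RPM of 4.04 to 4.27 in the 6 C57BL/6JBabr libraries and 6.08 and 5.89 in C57BL/10, a difference of 1.86 (standard error 0.10, adjusted p = 2.58e-07 from limma). Nnt and Nmnat2 (0.88) were also called by edgeR, the other 3 were not.

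Among 27 FoxO regulators, 7 were called higher and 6 lower in C57BL/10, beside 18.2% and 11.5% of all genes tested, and edgeR called 2 and 6 of these. The 7 genes of the 14-3-3 family, whose proteins bind FoxO proteins phosphorylated by Akt, were all called by limma, 3 higher and 4 lower, and edgeR called the 4 lower ones only. Ywhaq lay between 8.54 and 9.12 in the C57BL/6JBabr libraries and at 6.69 and 6.50 in C57BL/10. Ywhaz lay between 7.93 and 8.12 and at 6.74 and 6.60. Their differences were -2.20 and -1.31 (adjusted p = 4.49e-06 and 1.12e-06 from limma). Ywhah lay between 7.20 and 7.78 and at 6.70 and 7.07, a difference of -0.58 (adjusted p = 0.0284 from limma). Sfn had few reads in C57BL/10, 3 in the young adult and 1 in the aged library against 18 to 34 in each C57BL/6JBabr library (adjusted p = 0.000447 from limma). Scaled to depth, its summed reads in C57BL/10 were 0.105 of those in C57BL/6JBabr (95% exact binomial interval 0.0282 to 0.274, counting error only). Ywhab, Ywhae and Ywhag were 0.24 to 0.30 higher by limma, where the median of all genes lay 0.17 higher, and 0.06 to 0.12 by edgeR. Ywhaq, Ywhaz and Hdac1 have processed pseudogene copies with which reads can be shared, so their values are uncertain. Such sharing was not tested here. These regulators were named after their values were seen.

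For FoxO targets, 13 of 47 were called higher and 3 lower, beside the same 18.2% and 11.5%. Of these 4 and 3 were also called by edgeR. Here and in the lists below, genes called by edgeR alone were not counted. The share of all genes called by both tools was not counted either. The cell cycle inhibitor Cdkn1a was 0.56 higher (adjusted p = 0.00207 from limma) and Sesn3, a stress-response gene, 0.49 higher, while the difference of Gadd45b, a DNA damage response gene, was -0.86 (adjusted p = 0.00459 from limma). For insulin and PI3K-Akt signalling 7 of 28 were called higher and 1, Akt2 (-0.73, adjusted p = 0.00576 from limma), lower, of which edgeR called 2 and 1. The sirtuin partners had 1 of 30 higher and 2 lower, of which edgeR called 0 and 2. The other histone deacetylases had 2 of 11 higher and 1 lower, Hdac1 (-1.34), of which edgeR called 0 and 1. Of 17 other forkhead genes 1 was called, Foxm1, a driver of mitosis (-0.91, adjusted p = 0.00248 from limma). These examples too were named after their values were seen. Of the 47 genes of these lists that limma called between strains, 10 stayed called without the young adult and 13 without the aged C57BL/10 library. Of all 47, the genes called under every alternative that tested them were Nnt, Nmnat2, Mdm2 and Ulk2, which were higher in C57BL/10, and Ywhaq, Ywhaz, Sfn and Hdac1, which were lower. The difference of Foxm1 was -0.59 without the young adult C57BL/10 library, and it was then not called.

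By likeness over the 8 libraries, the closest genes to each member were found among 14828 genes by Pearson correlation. They were Fam38b (r = 0.997) and 5031439G07Rik (0.994) for Foxo3, Ndst1 (0.989) and 2310046A06Rik (0.985) for Foxo1, and Wdr59 (0.989) and 4930599N23Rik (0.983) for Foxo4. For the sirtuins they were Suz12 (0.968) and Gar1 (0.948) for Sirt1, Mtg1 (0.991) and Cml1 (0.988) for Sirt2, Tapbp (0.992) for Sirt3, and Taok3 (0.986) and Vgf (0.986) for Sirt4. Ikbkg (0.986) and Nln (0.980) were closest to Sirt5, 1500032L24Rik (0.968) to Sirt6, and Map3k11 (0.951) and Rarg (0.934) to Sirt7. With 8 libraries, which share depth and scaling, and this many genes, such values are descriptions only.

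H3K4me3 marks the promoters of genes that are active or poised, and H3K27me3 those held silent by Polycomb. The deposited table gave 1 value per age over 3 ChIP replicates, in log2 RPM over 5000 bp centred on each annotated start, so no error is known and no test was made. Of the 10 genes 9 had H3K4me3 above 1 in young adult NSPCs at the window of their lowest-numbered transcript, and Sirt5 alone had not, while 59.5% of all 25888 genes did. Foxo3 (7.06 in young adult, 7.28 in aged NSPCs) and Foxo1 (6.68 and 6.91) stood above 99.9% and 99.3% of genes. Sirt2 (5.88 and 6.04) and Sirt3 (5.87 and 6.11) came next. Foxo4 (4.77 and 4.98), Sirt7 (4.63 and 4.83), Sirt4 (4.47 and 4.63), Sirt1 (4.36 and 4.37) and Sirt6 (4.06 and 4.30) followed. The order differed from that of RNA per length, in which Sirt2 was the highest and Foxo1, by the exon lengths used, the eighth.

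Some of these windows hold the start of another gene. The window of Sirt2 also holds the start of Nfkbib, that of Sirt3 the start of Psmd13, that of Sirt6 the start of Ankrd24 and that of Foxo1 the start of the antisense gene Gm20402, so the signal cannot be given to 1 of each pair. The Sirt1 window (chromosome 10, 63379204 to 63384204) lay 42.669 kb from the RefSeq start and held a start of Dnajc12. A further deposited window, that of Sirt1-002, is centred on the RefSeq start and had 4.98 in young adult and 5.30 in aged NSPCs. The only Sirt5 window (chromosome 13, 43368210 to 43373210) lay 5.175 kb inside the gene from the RefSeq start, and its H3K4me3 was 0.0090 in young adult and -0.31 in aged NSPCs, under its Input of 1.03 and 0.89. The ChIP values thus do not describe the RefSeq start of Sirt5.

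None of the 10 windows counted as changed with age, at 1.5-fold with a log2 RPM above 1 in an age. By this rule 0.224% of genes changed in H3K4me3 (0.0618% up, 0.162% down) and 1.61% in H3K27me3 (0.749% up, 0.858% down). These splits moved with the scaling. In H3K4me3, 16 genes were up and 42 down, but 581 up and 134 down with Input subtracted, 3 up and 180 down centred on windows above 1, and 21 up and 33 down after quantile normalization. In H3K27me3, 194 were up and 222 down, 148 up and 270 down when centred, 375 up and 465 down with Input subtracted, and 211 up and 193 down after quantile normalization, which turned the split. The 9 windows with H3K4me3 above 1 differed by 0.02 (Sirt1) to 0.24 (Sirt6), all upward, but the median over the 15461 genes above 1 was itself 0.21. Relative to that median, they ranged from -0.19 to 0.03. The Sirt1 value is that of the window away from its RefSeq start. The Sirt1-002 window, on the RefSeq start, rose by 0.324, above the 95th percentile of the genes above 1 (0.315). Over Input, Foxo1 went from 5.68 to 5.66 and Sirt1 from 3.42 to 3.41. The others of these windows rose over Input, Sirt6 the most, from 2.79 to 3.35. Of all 48 deposited windows of the 10 genes, alternative starts included, 37 had H3K4me3 above 1 in young adult NSPCs and 0 counted as changed in either mark.

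H3K27me3 was above 1 in young adult NSPCs in 2 of the 10 genes, Foxo1 and Sirt6, against 35.3% of all genes. Both were also above 1 in H3K4me3, and 19.5% of genes were above 1 in both. This level is near the Input of many windows. The Input of the Sirt2 window, 0.92 in young adult and 0.97 in aged NSPCs, lay above that of 49.6% of genes. A value above 1 thus need not mean that the mark is present, and these are not shares of marked genes. Foxo1 had 2.00 in young adult and 2.04 in aged NSPCs, over an Input of 1.00 and 1.24. Sirt6 had 1.83 and 1.57, over an Input of 1.27 and 0.95. In the other 8 windows H3K27me3 lay under Input in both ages or, for Sirt1, at it (0.93 against an Input of 0.94 in young adult). The largest difference was that of Sirt7, from -0.41 to -1.28, at a level under that of its Input (1.38 and 1.08). It did not count, since neither age was above 1.

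**Figure D3:**
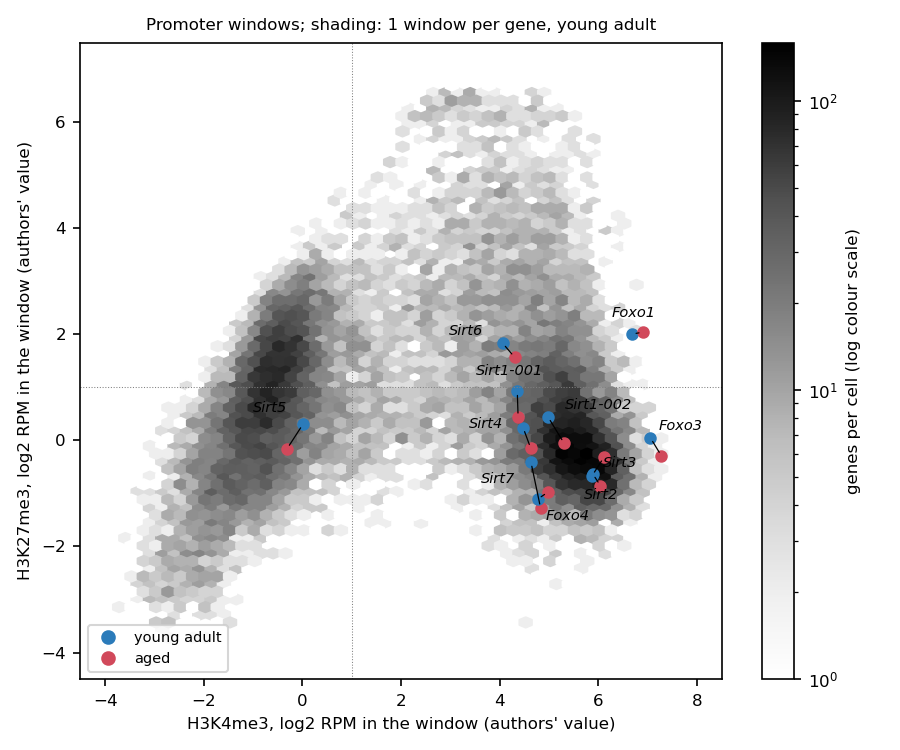
H3K4me3 (horizontal) against H3K27me3 (vertical), both in log2 RPM over 5000 bp windows, with lines joining young adult to aged NSPCs for each gene and grey shading for 1 window of each of 25888 genes (12 of them outside the axes). Foxo1 and Foxo3 lie at the right edge of the shading, Sirt5 lies on the left among windows without H3K4me3, and the joined points are close to each other.

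DNA methylation was read by 2 assays, oxidative bisulfite sequencing (oxBS), which reads 5-methylcytosine (5mC), and bisulfite sequencing (BS), which reads 5mC and 5-hydroxymethylcytosine (5hmC) together. Coverage was low, with 13616283 to 21389132 CpG calls in an oxBS and 23121086 to 30400033 in a BS library, and 1.20 to 1.48 calls per covered position, so calls were summed over regions. Within 1 kb of the start, Foxo3 had 0 methylated of 889 oxBS calls, which allows up to 0.662% in the young adult and 0.688% in the aged libraries. The calls of both ages of Foxo1 held 0.882% 5mC over 1021 calls and those of Foxo4 0.935% over 321. Sirt3 followed with 2.44%, Sirt2 with 4.13%, Sirt7 with 9.86% and Sirt1 with 10.3%. That value of Sirt1 is for the start away from the RefSeq one. At the RefSeq start Sirt1 had 6.82% over 895 calls. The higher values were those of Sirt4 (17.0%) and Sirt6 (31.6%). The median over 19453 genes was 10.6%. Intervals and limits of this kind cover counting error only.

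The deposited start of Sirt5 was methylated, with 88.6% 5mC within 1 kb, more than 98.6% of genes. At its RefSeq start, whose sequence is shown above, 5mC was lower. There the young adult libraries had 30.6%, 45.2% and 33.3% over 42 to 111 calls, and the aged libraries 37.5%, 21.5% and 8.40% over 64 to 119 calls. The bases from the RefSeq start to 500 bases after it had 8.75% in young adult and 4.80% in aged NSPCs, against 97.7% and 58.6% from 1 kb to 500 bases before it, where the aged libraries held only 29 calls. Aged replicate 3 was the lowest library, and the groups overlapped. Over 2.5 kb on either side the difference was -14.8 percentage points (standard error 10.2), with an unadjusted p of 0.0529 from the quasi-binomial model with limma's moderation and an adjusted p of 0.918. BS gave -2.23 there (standard error 6.1, unadjusted p = 0.585 with limma's moderation). Within 1 kb the BS libraries had 14.5%, 23.7% and 39.5% in young adult and 23.7%, 27.9% and 29.5% in aged NSPCs, so the lower aged values of oxBS were not seen in BS.

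**Figure D4:**
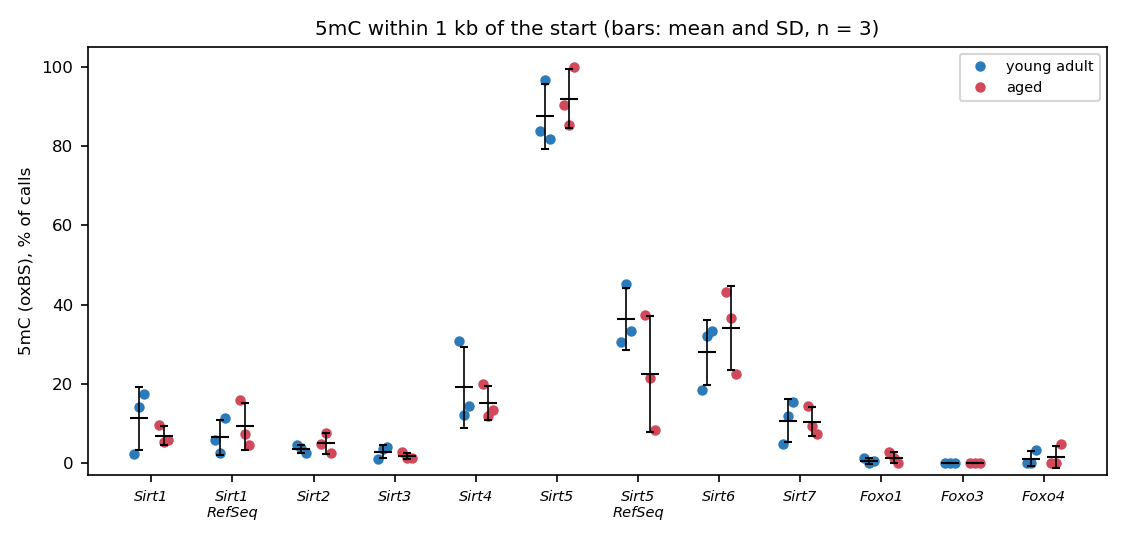
Percentage of oxBS calls that were methylated within 1 kb of the start of each gene (vertical axis, 0 to 100%) in the 3 young adult and 3 aged libraries, with mean and SD. The RefSeq starts of Sirt1 and Sirt5 are shown beside those of the ChIP windows used for them. Foxo3 lies at 0 in all 6 libraries, and young adult and aged points overlap for every start.

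The width of the unmethylated stretch differed between the genes. Around Foxo3 the bins of 500 bp from 2 kb before to 1 kb after the start had no methylated call in either age. Around Foxo1 the bins from 500 bases before to 2 kb after the start held 0.0% to 1.98%. At Sirt6 a single bin, from the start to 500 bases after it, was low (1.27% in young adult, 1.41% in aged NSPCs), and the bins beside it held 50.0% and 54.5% before and 51.2% and 47.8% after. Centred on the start of the RefSeq entry shown, 231 bases further into the gene, the low bins were those on either side, with 11.1% and 4.29% before and 0.870% and 17.9% after. At the RefSeq start of Sirt1, the promoter with 39 CpGs, the low bins reached from 500 bases before to 1 kb after the start, with 0.0% to 7.06%. The bin values are sums over the 3 libraries of an age and were not tested.

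**Figure D5:**
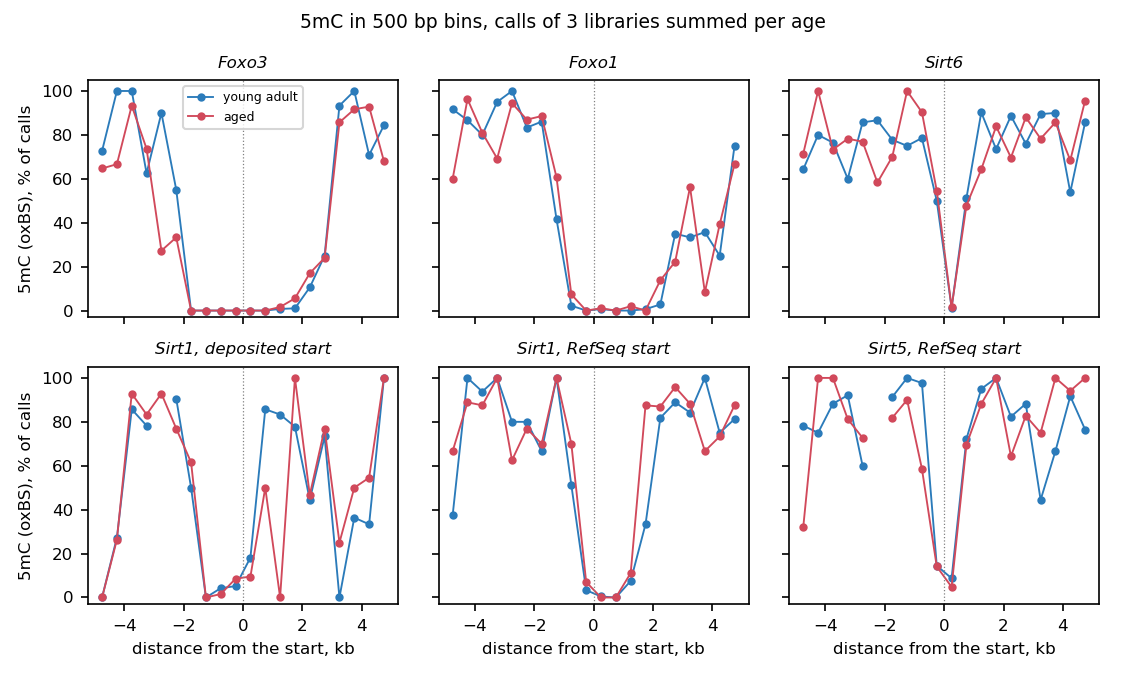
Percentage of oxBS calls that were methylated in bins of 500 bp against the distance from the start in kb, for 6 starts, with the calls of 3 young adult (blue) or 3 aged (red) libraries summed. The low stretch is widest at Foxo3 and Foxo1 and 1 bin wide at the deposited start of Sirt6, and gaps mark bins without calls.

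No promoter window or gene body of the 10 genes was called between ages. Over the windows of 2.5 kb on either side, 0 of 23775 genes (0.0%) were called in oxBS and 0 of 24542 (0.0%) in BS by the quasi-binomial model with limma's moderation, with 5.4% and 4.82% at an unadjusted p under 0.05. In BS the windows of Sirt1 and Sirt3 had such a p and in oxBS none of the 10. The libraries of the ages did not overlap for these 2 windows in BS and for none in oxBS, against 9.75% and 10.4% of all windows. At the Sirt1 window the assays pointed in opposite directions. BS gave 23.3%, 12.8% and 16.8% in young adult and 29.4%, 32.5% and 26.5% in aged NSPCs, so aged NSPCs were 11.8 percentage points higher (standard error 3.5, adjusted p = 0.983 with limma's moderation), without overlap. oxBS gave 14.9%, 28.7% and 29.1% in young adult and 8.11%, 21.6% and 12.9% in aged NSPCs, where the aged minus young adult value was -10.05 (standard error 6.1, adjusted p = 0.917 with limma's moderation). This is the window that holds a start of Dnajc12. At the RefSeq start of Sirt1 the differences were 7.93 in oxBS and 1.13 in BS.

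In gene bodies, Sirt3 had 77.7%, 79.7% and 80.1% 5mC in young adult and 83.3%, 84.9% and 90.5% in aged NSPCs by oxBS, without overlap, as in 9.45% of all gene bodies. The difference was 7.11 percentage points (standard error 2.32), with an unadjusted p of 0.0174 and an adjusted p of 1.0 with limma's moderation, and 4.35% of the 18489 gene bodies had an unadjusted p under 0.05. By BS the Sirt3 gene body had 80.1%, 86.2% and 81.7% in young adult and 81.5%, 84.6% and 83.1% in aged NSPCs, a difference of 0.41. By BS the libraries of the ages did not overlap for Foxo1 (81.0% ± 1.2 in young adult, 78.3% ± 1.6 in aged NSPCs) and Sirt4 (69.2% ± 2.3 and 75.5% ± 4.9, SD, n = 3), which is 2 of the 10 genes where 8.94% of all gene bodies did not overlap by BS, and neither was called. The bodies of Foxo1 (80.4% ± 1.7 in young adult, 79.7% ± 0.8 in aged NSPCs) and Foxo3 (79.6% ± 0.9 and 78.6% ± 0.9, SD, n = 3) were methylated in both ages by oxBS. Sirt1 was lower (61.4% ± 5.3 and 62.8% ± 6.6), and its region includes the RefSeq start with its low bins. The region runs from 63319005 to 63379204, and the RefSeq start is at 63339035 on the minus strand. Most of the region thus lies before the RefSeq start.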

How the data were processed

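RNA, ChIP and methylation were measured in the samples described above. The RNA table was deposited as log2 RPM per gene and library, and the ChIP table as log2 RPM per window, 1 value per age made by the authors over 3 replicates, so neither SD nor test was possible for ChIP. The deposited methylation files give counts of methylated and unmethylated calls per CpG, beside a percent that was not used. The submitters' processing notes name Trim Galore 0.4 and 0.3.7, FastQC 0.10.1, bcl2fastq 2.15.0.4, STAR 2.3.0, Bowtie2 2.2.5 and Bismark 0.12.5, and build GRCm38. Whether counting used strand is not stated. By the longer count of exons, at most 7.78% of the exon length of a member (Foxo1, with Gm20402) is shared with any 1 other gene. Sirt3 shares 7% with Ric8a and 5.73% with Psmd13, both on the opposite strand.

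The log2 RPM were compared with limma 3.58.1 (moderated test with a mean-variance trend, Benjamini-Hochberg over genes with a mean of at least -2, threshold 0.05, no pseudocount added). Whole reads recovered from the steps of log2 RPM (100% of values between 1 and 1000 reads whole within 0.02) served edgeR 4.0.16 and DESeq2 1.42.0 as alternatives. For methylation, calls were summed over regions that held at least 10 in each library. A quasi-binomial model with limma's moderation of the dispersion was fitted, and a call needed 10 percentage points. The differences and standard errors given are those of the unweighted library percentages. The p came from the model of the calls, so it does not follow from that standard error. Replicate libraries are separate derivations. The RNA deviations of equally numbered libraries correlated at 0.659, 0.179 and 0.724 over 14858 genes. Libraries of unequal number were not compared, and the labels do not say that equal numbers were made together. Pairing by number is thus an assumption of the blocked fit. The block was a covariate for age and a random effect between strains, with each C57BL/10 library on its own. Exon lengths for RPKM came from the basic set of GENCODE vM21. Scripts ran in R 4.3.3 and Python, and the models were tested on simulated data.

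The members and lists were chosen with earlier results of these data known. Named are all members, list genes called with or without the block (at most 10), or otherwise the 3 with the largest differences, and the 2 most correlated genes of each member. Some of the latter are not reported here. Alternatives were other scalings, filters, pseudocounts, tools, windows, call minimums and left-out libraries.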

Additional observations from a re-analysis of the deposited data

How the results depend on the processing

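No age call of the 10 genes appeared under any alternative for RNA or methylation. For RNA by age, 0 genes were called by limma, also with other scalings, filters or left-out libraries, against 4 by DESeq2 and 74 in the fit blocked on replicate number, in which the same-numbered libraries were paired. That pairing is an assumption. Among the genes named the block added the call of Igfbp5 by age and took those of Sirt4 and Ywhab (adjusted p = 0.0535 and 0.0666 from limma) between strains. Of the 47 list genes called between strains 43 stayed called with the block, 24 by edgeR and 25 by DESeq2, and none changed direction. For strain, the count of 4405 genes became 2572 by edgeR and 2868 by DESeq2, and 1425 without the young adult and 1851 without the aged C57BL/10 library, in a range of 1425 to 4638 over left-out libraries. For the age difference between strains the 1 gene called became 0 with median centring, a pseudocount of 1 RPM, edgeR or DESeq2, 0 to 0 without any 1 of the 6 C57BL/6JBabr libraries, 4 without a filter and 36 with the block. Of the genes counted as changed in H3K4me3 there were 58, and 715 with Input subtracted, 183 centred on windows above 1 and 6 at 2-fold, and of those in H3K27me3 416, 840 with Input subtracted and 43 at 2-fold. In gene bodies 1 gene was called without young adult oxBS replicate 3 and 0 otherwise. The cause of these changes was not tested.

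Small differences changed direction, none of them called in limma. With all 8 libraries and strain as a covariate Sfn was at -0.18 by age. Between strains Sirt1 was at 0.0601 with quantile normalization and 0.0034 with median centring, Sirt6 at -0.0525 by edgeR and -0.0420 by DESeq2, and Sirt7 at -0.0597 by edgeR and -0.0476 by DESeq2. Leaving out 1 library at a time moved the log2 age differences over these ranges, Sirt1 -0.0193 to 0.20, Sirt2 -0.23 to 0.0354, Sirt3 -0.26 to 0.0673, Sirt5 -0.20 to 0.0756, Sirt7 -0.00896 to 0.15, Foxo1 -0.12 to 0.12 and Foxo4 -0.0446 to 0.14, while Sirt4 lay at 0.0706 to 0.16, Sirt6 at -0.21 to -0.0982 and Foxo3 at 0.0914 to 0.18. For list genes they were Nmnat1 -0.22 to 0.0407, Sfn -0.0802 to 0.56, Pim1 -0.00396 to 0.28, Cdk1 -0.29 to 0.0619, Hdac7 -0.0173 to 0.23 and Foxc1 -1.15 to 0.0786. The strain difference of Sirt1 -0.0674 to 0.0499, and the age difference between strains of Sirt2 -0.0503 to 0.21, Sirt3 -0.0329 to 0.29, Sirt4 -0.0222 to 0.0684, Sirt7 -0.13 to 0.0321, Foxo1 -0.0154 to 0.23, Foxo3 -0.0124 to 0.0757 and Foxo4 -0.00817 to 0.18, crossed 0 in the same way.

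Methylation differences, in percentage points, turned with the window. Within 1 kb, oxBS gave -1.14 for Sirt3, -4.02 for Sirt4, -0.249 for Sirt7 and 0.457 for Foxo4, and at the RefSeq starts 7.93 for Sirt1 and -14.8 for Sirt5. Within 1 kb, BS gave -2.41 for Sirt2, 5.08 for Sirt5, 2.96 for Sirt6, -0.434 for Foxo1, -0.142 for Foxo3 and 0.0892 for Foxo4, and means over positions gave 0.985 for Sirt6 and -0.0951 for Foxo1. In gene bodies BS gave -2.30 for Sirt1, 0.325 for Sirt5, -2.42 for Sirt7 and 8.02 for Foxo4. Without 1 library, oxBS windows ranged over Sirt2 -4.2 to 8.58, Sirt3 -3.17 to 4.01, Sirt4 -0.38 to 6.79, Foxo3 -0.0612 to 0.747 and Foxo4 -7.08 to 8.7, BS windows over Sirt2 -0.657 to 2.52, Sirt6 -7.75 to 7.59, Foxo1 -1.14 to 2.02, Foxo3 -0.0817 to 0.397 and Foxo4 -3.23 to 2.32, and oxBS gene bodies over Sirt1 -0.733 to 5.15, Sirt7 -2.34 to 3.7 and Foxo4 -11.3 to 1.22. The deviations of same-numbered methylation libraries correlated at -0.0079 to 0.0259. At this low coverage counting error is large, so such values cannot show whether libraries of equal number were made together. The replicate block called 0 regions in each methylation fit. The RefSeq windows and the use of BS in gene bodies were chosen after seeing the data.

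Depth limits the methylation values, at 1.20 to 1.48 calls per covered position, and 3 derivations per age limit RNA to the intervals given. The ChIP values hold no replicate, and the C57BL/10 cohort has 1 library per age. The start used for Sirt1 and the only one of Sirt5 in the ChIP table are not those of RefSeq.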
